A study of Mus musculus with 16 samples.

Results

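A set of 10 genes that are commonly used to recognise brain pericytes was followed here: Rgs5, Abcc9, Kcnj8, Cspg4, Anpep, Vtn, Art3, Higd1b, Atp13a5 and Ndufa4l2. They were chosen by symbol, through the Ensembl identifiers of the count table, and all 10 were found among its 21804 genes. The libraries came from C57BL/6 mice aged 4 months that carried the ret allele of Pdgfb, an allele that removes the retention motif of the growth factor PDGF-B. Of the 8 animals, 4 were Pdgfb ret/ret and 4 were Pdgfb ret/wt controls, and each gave 1 cortex library and 1 thalamus library. The 16 polyA-selected, stranded libraries therefore formed 4 groups of 4, cortex and thalamus of each genotype. The controls carried the ret allele too, in 1 copy, and no animal without it entered these comparisons.

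The pieces of ret/ret thalamus were calcifications cut out under a fluorescence stereomicroscope, and the same anatomical region was taken from ret/wt brains. In thalamus the genotype and this dissection cannot be told apart, whereas the cortex was taken as tissue without calcifications in both genotypes. All values came from bulk tissue, in which fewer pericytes and less RNA of a gene per pericyte cannot be told apart.

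Pericytes are mural cells that sit in the basement membrane of capillaries, wrapped around the endothelial tube. Endothelial cells secrete PDGF-B, which is held close to the vessel by its retention motif and binds PDGFR-beta on pericytes, and this signal recruits pericytes to growing vessels. In the brain these cells take part in forming the blood-brain barrier and in controlling capillary flow. No marker is exclusive: Cspg4 also marks oligodendrocyte precursor cells, Anpep also occurs in fibroblasts and myeloid cells, and several of the others also occur in smooth muscle.

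The genes did not move as one block. Rgs5, Abcc9 and Kcnj8 were lower in ret/ret than in ret/wt in cortex and in thalamus, by 2.69-fold to 8.09-fold. In cortex Art3, Atp13a5 and, without a filter on low counts, Higd1b were also lower at an unadjusted p under 0.05. Over both regions Art3, Atp13a5 and Higd1b were lower at that p too. In thalamus they missed it, which does not show that their fall was limited to cortex. Cspg4, Anpep, Vtn and Ndufa4l2 did not pass an unadjusted p of 0.05 in any of the 3 genotype comparisons. Rgs5 alone of the set passed the adjusted threshold of 0.05.

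The libraries held 13415438 to 29135220 counts, so that 3 counts, the limit that a count of 0 allows, corresponded to 0.103 to 0.224 CPM (counts scaled to a common library total). This limit covers counting error only. The Y-linked gene Ddx3y stood at 52.5 to 71.8 CPM in ret/wt animal 3 and ret/ret animal 2, and at no more than 0.214 CPM in the other 6 animals. Cerebellar marker genes summed to 1140 CPM in ret/wt cortex library 3 and to 2800 CPM in ret/ret cortex library 2, against at most 73.7 CPM in the other cortex libraries. Choroid plexus genes summed to 1720 CPM in ret/wt cortex library 4, against 203 to 429 CPM in the other cortex libraries.

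Abcc9 and Kcnj8 encode the 2 parts of the vascular ATP-sensitive potassium channel: Kcnj8 the pore Kir6.1 and Abcc9 the regulatory sulfonylurea receptor SUR2. This channel couples the energy state of a mural cell to its membrane potential. In the GENCODE M21 annotation of GRCm38 the genes are neighbours on the minus strand of chromosome 6, Kcnj8 at 142564837 to 142571614 and Abcc9 at 142587862 to 142702315. A stretch of 16247 bases separates them, and no gene of the count table lies between them. The pair shared a lower level in ret/ret (r = 0.83 over the 16 libraries), but within groups the correlation was 0.08. The ret/ret cortex libraries held 2 to 7 counts of Kcnj8 and 7 to 27 of Abcc9. The within-group value therefore carries counting error and does not show that the genes vary apart. The sequences upstream of their start sites are shown because the genes are neighbours with the same direction of difference, with that of Rgs5 (chromosome 1, 169655501 to 169695813, plus strand), the gene with the smallest p-value of the set. They come from RefSeq promoters on GRCm38.p6, read 5′ to 3′ on the strand of the gene. The Rgs5 sequence is chr1:169655251-169655500, plus strand. The Abcc9 sequence is chr6:142702316-142702524, minus strand, without the 41 bases nearest the RefSeq start, which lie in the first exon of the GENCODE model. The Kcnj8 sequence is chr6:142571615-142571864, minus strand. Capitals mark the core TGGGAA bound by RBPJ, the DNA-binding partner of Notch receptors.
Rgs5: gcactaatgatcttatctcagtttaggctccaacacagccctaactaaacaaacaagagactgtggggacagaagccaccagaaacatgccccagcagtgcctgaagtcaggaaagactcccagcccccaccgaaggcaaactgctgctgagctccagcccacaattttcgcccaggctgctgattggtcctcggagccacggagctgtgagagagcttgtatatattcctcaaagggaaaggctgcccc
Abcc9: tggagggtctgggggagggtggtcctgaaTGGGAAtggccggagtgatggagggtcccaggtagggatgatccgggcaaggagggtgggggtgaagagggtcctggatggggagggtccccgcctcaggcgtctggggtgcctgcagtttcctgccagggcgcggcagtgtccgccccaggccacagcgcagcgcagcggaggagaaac
Kcnj8: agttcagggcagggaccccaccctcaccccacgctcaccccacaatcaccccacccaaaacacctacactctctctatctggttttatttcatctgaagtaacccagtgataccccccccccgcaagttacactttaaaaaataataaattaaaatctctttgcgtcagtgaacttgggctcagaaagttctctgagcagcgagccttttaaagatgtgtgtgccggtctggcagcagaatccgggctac

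The upstream bases had a GC content of 53.6% for Rgs5, 66.8% for Abcc9 and 49.2% for Kcnj8, against a median of 52.4% over 32851 promoters. Promoters were on hand for 8 of the 10 genes, and not for Higd1b and Ndufa4l2. On both strands, the RBPJ core TGGGAA was present in promoters of Abcc9, Art3 and Vtn, and in 21.6% of all promoters. The forkhead core TGTTTAC (3.17% of all promoters), the T-box core GGTGTGA (3.33%) and the serum response factor motif known as the CArG box (1.47%) were found in 0 of the 10 promoters of these genes. A match is a description of the letters only.

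Kcnj8 was low in every ret/ret cortex library. It held 3.06, 2.34, 2.11 and 0.814 CPM in the ret/wt cortex libraries and 0.29, 0.218, 0.073 and 0.456 CPM in those of ret/ret cortex, the latter from 18 counts in all. In thalamus the values were 3.54, 2.05, 2.03 and 2.84 CPM in ret/wt and 1.33, 0.224, 0.533 and 1.01 CPM in ret/ret. The genotypes did not overlap in either region. The log2 fold change was -3.02 ± 0.62 (SE, 8.09-fold lower) in cortex and -1.71 ± 0.55 (SE, 3.28-fold lower) in thalamus, with unadjusted p-values of 0.000674 and 0.0105. After Benjamini-Hochberg adjustment of the edgeR quasi-likelihood p-values, neither passed (0.476 and 1.0). In DESeq2 the adjusted p of Kcnj8 was 0.00724 in cortex and 0.0221 over both regions, and it passed in none of the other alternatives of the genotype comparisons.

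Abcc9 was also lower in both regions. The ret/wt cortex libraries held 5.89, 5.85, 4.22 and 4.07 CPM, and the ret/ret cortex libraries 0.508, 0.916, 0.986 and 0.586 CPM. In ret/wt thalamus it was at 6.78, 13.4, 5.14 and 3.42 CPM, and in ret/ret thalamus at 1.64, 1.25, 1.65 and 3.52 CPM. The cortex values lay far apart, while in thalamus the highest ret/ret library just overlapped the lowest ret/wt library. In cortex the log2 fold change was -2.69 ± 0.35 (SE, 6.45-fold lower), the fourth smallest p among the 14288 genes tested, at 0.0659 after Benjamini-Hochberg adjustment of the edgeR quasi-likelihood p-values. In thalamus it was -1.79 ± 0.49 (SE, 3.47-fold lower), with an unadjusted p of 0.0042. The cortex difference passed an adjusted 0.05 in DESeq2 (1.0e-08), with counts scaled to the endothelial list (0.0284) and with a newer dispersion estimate of edgeR (0.0478).

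The genes around the pair and its relatives were measured in the same fits. Besides the pair, 10 genes of the count table lay within 250000 bases of it, and none of those tested reached an unadjusted p of 0.05 in a genotype comparison. Slco1a5, named after its values were seen, had the largest log2 fold changes among them. These were 1.20 ± 0.88 (SE) in cortex, 1.88 ± 0.86 (SE) in thalamus and 1.44 ± 0.70 (SE) over both regions. Ldhb, on the side of Kcnj8, was at a log2 fold change of 0.21 ± 0.21 (SE) in cortex and 0.10 ± 0.27 (SE) in thalamus, and Cmas, on the side of Abcc9, at 0.10 ± 0.16 (SE) and -0.16 ± 0.21 (SE). Kcnj11 and Abcc8, which form the ATP-sensitive channel of neurons and beta cells, were at -0.08 ± 0.20 (SE) and 0.04 ± 0.23 (SE) on the same scale over both regions. An antisense gene that shares 158 of the 8373 exon bases of Abcc9 was not analysed here.

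Rgs5, a regulator of G protein signalling and one of the most abundant mural transcripts, had the smallest p-value of the set in each genotype comparison. In cortex it held 63.5, 63.9, 48.8 and 62.0 CPM in ret/wt and 21.2, 13.8, 15.5 and 22.1 CPM in ret/ret. In thalamus it held 54.1, 68.6, 46.6 and 43.6 CPM in ret/wt and 17.3, 19.2, 18.2 and 22.6 CPM in ret/ret. Every ret/ret library, of either region, lay below every ret/wt library, and the 4 ret/ret thalamus libraries differed little from each other. When the counts of both regions were summed per animal, the ret/wt animals were at 57.5, 66.8, 47.7 and 53.1 CPM and the ret/ret animals at 19.0, 16.5, 16.7 and 22.7 CPM.

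With edgeR quasi-likelihood p-values after Benjamini-Hochberg adjustment, the log2 fold change of Rgs5 was -1.70 ± 0.20 (SE, adjusted p 0.041) in cortex, -1.43 ± 0.19 (SE, adjusted p 0.216) in thalamus and -1.59 ± 0.16 (SE, adjusted p 0.014) over both regions. The thalamus p was the smallest of 14767 genes. Over the 20 alternatives of each comparison, the adjusted p ran from 9.1e-11 to 0.291 in cortex, 8.1e-08 to 1.0 in thalamus and 3.7e-15 to 0.194 over both regions. The cortex call was lost when any 1 of its 8 libraries was left out, at adjusted p-values of 0.08 to 0.235 and log2 fold changes of -1.82 to -1.59. Over both regions it was kept without ret/wt animal 3 (0.0302) or ret/ret animal 4 (0.0319) and lost without any of the other 6 animals (0.0539 to 0.111). Without both animals with Y-linked reads it was lost in cortex (0.152) and over both regions (0.0999). The relatives Rgs4, Rgs8 and Rgs16, which are mainly neuronal, had log2 fold changes of -0.09 ± 0.37, 0.17 ± 0.68 and -0.28 ± 0.75 (SE) over both regions.

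**Figure D1:**
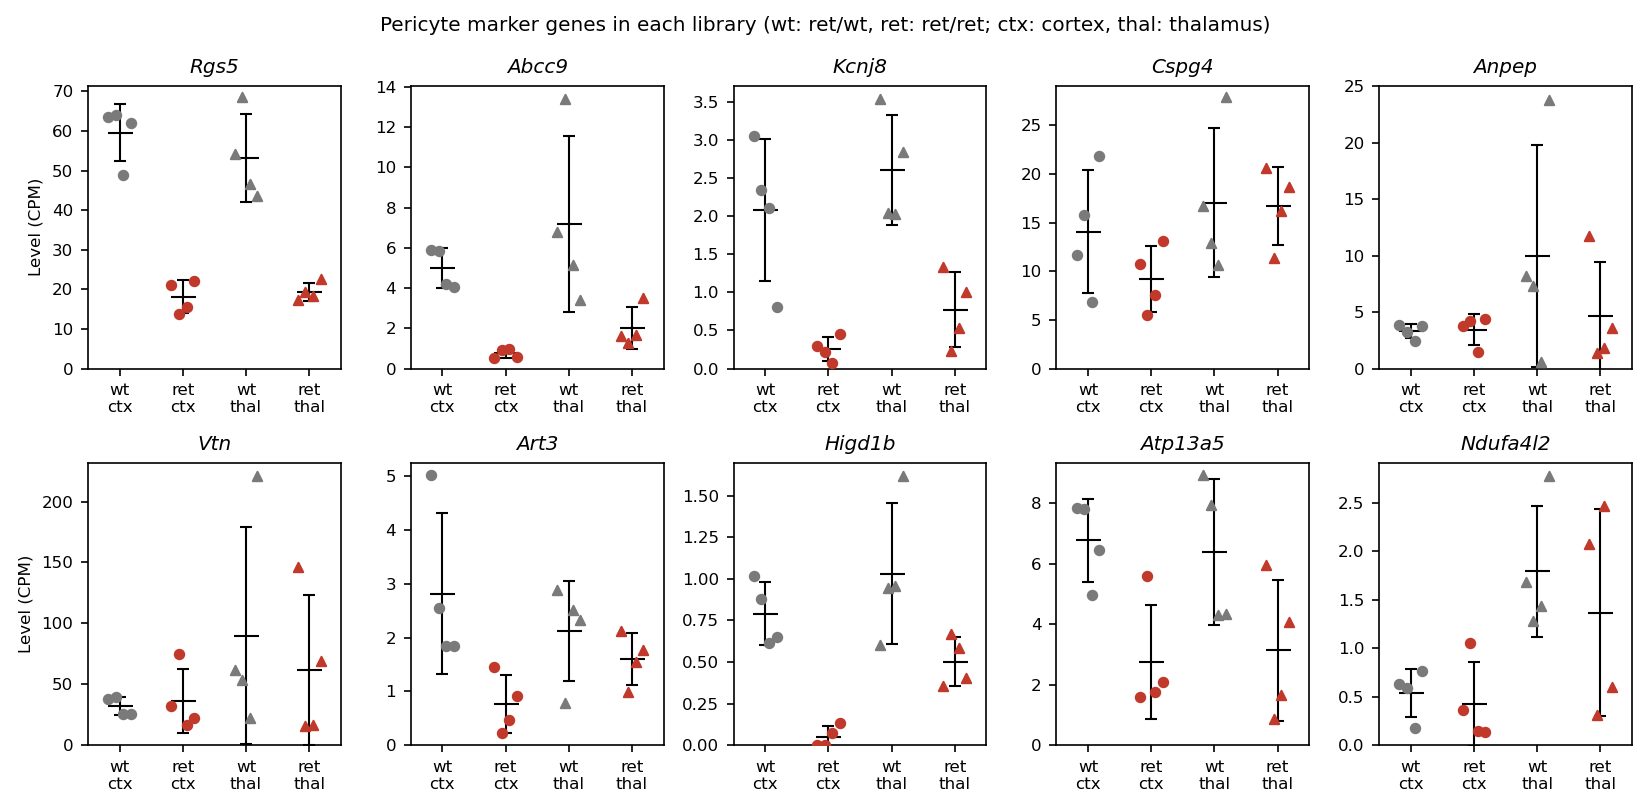
Level of each pericyte marker gene in CPM (linear axes from 0) in the 4 groups, with 1 point per library, a dash for the mean and bars for ± 1 SD (n = 4), which are cut at 0. Rgs5, Abcc9 and Kcnj8 stand lower in both ret/ret groups, while Cspg4, Anpep, Vtn and Ndufa4l2 overlap between genotypes.

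Among the surface proteins, Art3 was lower in cortex. Art3 belongs to the ADP-ribosyltransferase family. It held 5.02, 2.56, 1.85 and 1.85 CPM in ret/wt cortex and 1.45, 0.218, 0.475 and 0.912 CPM in ret/ret cortex. In thalamus it was at 2.89, 0.776, 2.51 and 2.33 CPM in ret/wt and 2.13, 0.983, 1.55 and 1.76 CPM in ret/ret. The groups were apart in cortex and overlapped in thalamus. The log2 fold change was -1.89 ± 0.61 (SE) in cortex and -0.37 ± 0.47 (SE) in thalamus, with unadjusted p-values of 0.0113 and 0.45. Art3 shares 133 of its 3932 exon bases with Cxcl10 on the other strand, and the setting for strand in the counting is not given in the sources used here. Cxcl10 itself had no fitted value in cortex alone or in thalamus alone. Over both regions its log2 fold change was 3.15 ± 0.74 (SE), opposite in sign to the -0.96 ± 0.43 (SE) of Art3.

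Cspg4, the NG2 proteoglycan, overlapped between genotypes. The cortex values were 11.7, 15.8, 6.86 and 21.8 CPM in ret/wt and 10.7, 5.45, 7.52 and 13.1 CPM in ret/ret. The thalamus values were 16.7, 12.9, 10.6 and 27.9 CPM in ret/wt and 20.6, 11.4, 16.2 and 18.6 CPM in ret/ret. The spread within a group was wider than the distance between the means. The log2 fold change was -0.60 ± 0.39 (SE) in cortex and -0.22 ± 0.33 (SE) over both regions, and that in thalamus was close to 0 with an SE of 0.33. Without ret/wt cortex library 3 the cortex value was -0.84 (unadjusted p 0.0368), and without ret/wt cortex library 4 it was -0.30. Oligodendrocyte precursor genes, a second source of Cspg4, had a median log2 fold change of 0.01 in cortex and 0.13 in thalamus. Their summed level was 504 to 619 CPM in ret/wt cortex and 462 to 736 CPM in ret/ret cortex, with 0 of the 11 genes at 0. Their part in the level of Cspg4 was not tested.

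Anpep encodes aminopeptidase N, or CD13, and was the most uneven surface marker. In cortex it held 3.85, 3.22, 2.46 and 3.80 CPM in ret/wt and 3.78, 4.23, 1.42 and 4.36 CPM in ret/ret. In thalamus it held 8.16, 7.27, 0.598 and 23.8 CPM in ret/wt and 11.7, 1.34, 1.79 and 3.62 CPM in ret/ret. The genotypes overlapped in both regions, and the ret/wt libraries held both the lowest and the highest thalamus value. As a log2 fold change Anpep was at 0.07 ± 0.39 (SE) in cortex, -1.09 ± 0.93 (SE) in thalamus and -0.64 ± 0.62 (SE) over both regions. The thalamus value was -0.14 ± 0.92 (SE) without ret/wt thalamus library 4 and -2.14 ± 0.95 (SE) without ret/ret thalamus library 1. Over both regions it ran from -1.24 to -0.11 when 1 animal was left out, the ends being those without ret/ret animal 1 and ret/wt animal 4.

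Vtn, the secreted matrix protein vitronectin, also overlapped between genotypes. The cortex libraries held 38.0, 39.5, 25.8 and 25.2 CPM in ret/wt and 31.7, 74.9, 16.2 and 22.5 CPM in ret/ret. The thalamus libraries held 61.3, 53.8, 22.4 and 221 CPM in ret/wt and 146, 15.4, 16.1 and 68.9 CPM in ret/ret. In each genotype 1 thalamus library was far above the others, and the groups overlapped throughout. As a log2 fold change Vtn was at 0.20 ± 0.43 (SE) in cortex, -0.52 ± 0.83 (SE) in thalamus and -0.15 ± 0.55 (SE) over both regions. Without ret/ret cortex library 2 the cortex value was -0.44 ± 0.28 (SE), and without ret/wt thalamus library 4 the thalamus value was 0.50 ± 0.77 (SE).

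The remaining 3 markers are transport or mitochondrial genes. Atp13a5, a P-type ATPase, was at 7.85, 7.82, 4.97 and 6.46 CPM in ret/wt cortex and 1.60, 5.58, 1.75 and 2.08 CPM in ret/ret cortex. It was at 8.94, 7.93, 4.31 and 4.33 CPM in ret/wt thalamus and 5.94, 0.849, 1.65 and 4.08 CPM in ret/ret thalamus. In cortex 3 of the 4 ret/ret libraries lay below all controls and the fourth lay among them. The log2 fold change was -1.27 ± 0.44 (SE, unadjusted p 0.0165) in cortex, -0.98 ± 0.56 (SE, unadjusted p 0.111) in thalamus and -1.08 ± 0.32 (SE, unadjusted p 0.0075) over both regions. Summed per animal, the ret/ret values of 1.71 to 4.33 CPM lay below the ret/wt values of 4.67 to 8.57 CPM. Its relatives Atp13a1, Atp13a2, Atp13a3 and Atp13a4 had log2 fold changes of 0.03 ± 0.18, -0.10 ± 0.28, -0.13 ± 0.18 and 0.29 ± 0.24 (SE) over both regions.

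Higd1b, of the hypoxia-inducible domain family, was close to absent from ret/ret cortex. It had 13, 12, 14 and 12 counts in the ret/wt cortex libraries and 0, 0, 2 and 2 counts in those of ret/ret, or 51 against 4 in all. In thalamus it was at 0.604, 0.943, 0.957 and 1.62 CPM in ret/wt and 0.355, 0.671, 0.582 and 0.403 CPM in ret/ret. The cortex groups were apart and the thalamus groups overlapped by 1 ret/ret library. Higd1b did not pass the filter on low counts in cortex, and without that filter its log2 fold change was -3.78 ± 0.88 (SE, unadjusted p 0.00124). Over both regions it was -1.61 ± 0.36 (SE, unadjusted p 0.00116). Higd1a, its relative found in most cells, had 0.27 ± 0.17 (SE).

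Ndufa4l2, a mitochondrial protein related to Ndufa4, was scarce. Its cortex values were 0.628, 0.585, 0.176 and 0.76 CPM in ret/wt and 0.363, 1.05, 0.146 and 0.13 CPM in ret/ret, too low for the filter. Its thalamus values were 1.68, 1.28, 1.44 and 2.78 CPM in ret/wt and 2.08, 0.313, 2.47 and 0.604 CPM in ret/ret. The genotypes overlapped in both regions. The log2 fold change was -0.36 ± 0.64 (SE) in thalamus and -0.34 ± 0.46 (SE) over both regions, and without the filter -0.30 ± 0.78 (SE) in cortex. In thalamus the value ran from -0.80 to -0.03 when 1 library was left out, the ends being those without ret/ret thalamus library 3 and library 2, and it was -0.05 without ret/wt thalamus library 4 and -0.12 without ret/ret thalamus library 4. The cortex values rest on 2 to 24 counts a library. Ndufa4l2 shares 32 of its 1095 exon bases with Shmt2 on the other strand. Shmt2 had a log2 fold change of -0.13 ± 0.30 (SE) in cortex and 0.10 ± 0.36 (SE) in thalamus.

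**Figure D2:**
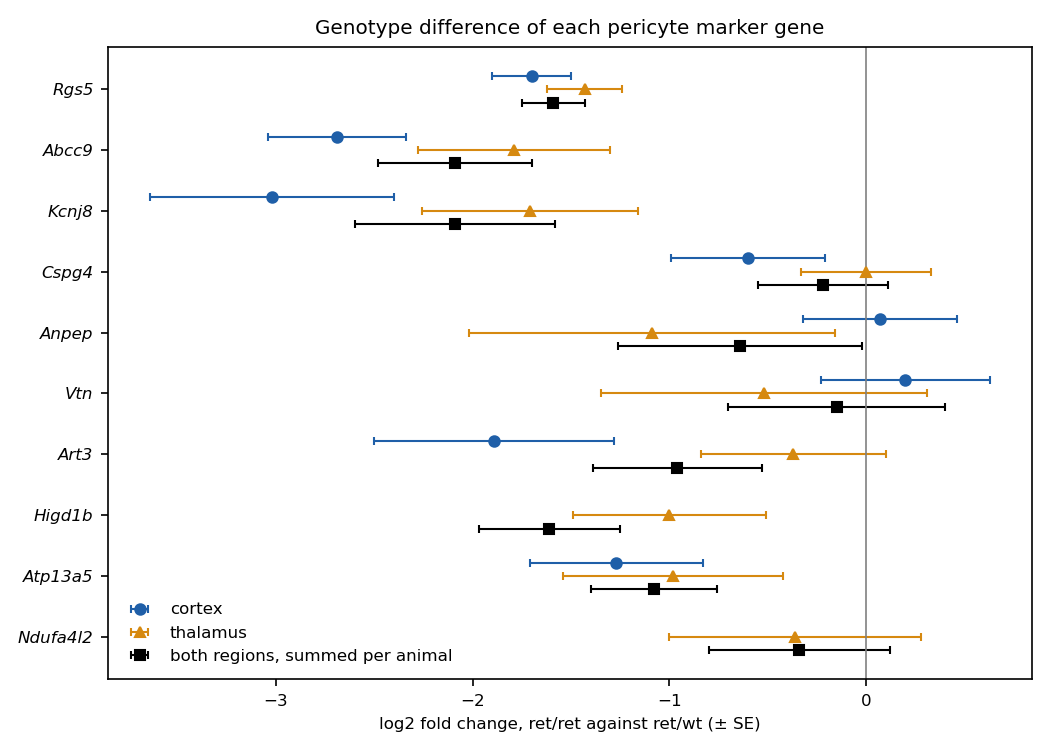
Log2 fold change of each gene in ret/ret against ret/wt (x axis, bars ± SE) in cortex, in thalamus and over both regions summed per animal. Rgs5, Abcc9 and Kcnj8 lie between -3.02 and -1.43 in all 3 comparisons; Higd1b and Ndufa4l2 have no cortex point because they did not pass the filter.

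Counted over the set, 8 of the 10 genes were tested in cortex, and Abcc9, Kcnj8 and Art3 would not have passed the filter there on the ret/ret libraries alone. In thalamus that held for Kcnj8, Higd1b and Ndufa4l2, and over both regions for Kcnj8 and Higd1b. The counts that follow describe the genes tested and not all members, and the members were chosen with earlier results of these data known. In cortex 5 of 8 were lower at an unadjusted p under 0.05 (Rgs5, Abcc9, Kcnj8, Art3 and Atp13a5), against 1.14% of all genes tested. Rgs5, Abcc9, Kcnj8 and Art3 did not overlap between genotypes, a pattern found in 0.735% of genes, and 1 gene passed adjustment, against 0.007%. In thalamus 3 of 10 were lower at that unadjusted p (0.88% of genes) and 2 did not overlap (1.03%), with 0 past adjustment (0%). That comparison had 0 calls over all genes in edgeR, with 581 genes at an unadjusted p under 0.05 and 37 calls in DESeq2. Over both regions 6 of 10 were lower (1.51%), 5 did not overlap (1.04%) and 1 passed adjustment (0.00645%). Over the 20 alternatives the number of these genes lower at an unadjusted p under 0.05 was 5 to 6 in cortex, 3 to 4 in thalamus and 4 to 7 over both regions. Markers of other cells differed alongside: in thalamus 6 of 9 microglia genes were higher at an unadjusted p under 0.05 (3.05% of all genes), with summed levels of 404 to 542 CPM in ret/ret and 276 to 328 CPM in ret/wt and 0 of 9 at 0. In cortex the choroid plexus genes summed to 203 to 386 CPM in ret/ret and 303 to 1720 CPM in ret/wt, with 0 of 9 at 0. Their part in the marker differences was not tested.

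The median log2 fold change of the tested markers was -1.48 in cortex, -0.99 in thalamus and -1.02 over both regions, where that of all genes was 0.01, -0.02 and -0.02. In thalamus and over both regions 10 of 10 were lower in sign, as were 52.9% and 53.4% of all genes, although Cspg4 in thalamus was at almost 0 and changed sign without the filter. The interaction of genotype and region tested whether a difference was unequal between regions, in a fit that did not pair the regions of each animal. Higd1b alone reached an unadjusted p of 0.05 there, in the direction shown by 0.89% of genes, at 2.78 ± 0.90 (SE, log2, unadjusted p 0.00714), which did not pass adjustment. Higd1b would not have entered this fit on either ret/ret group alone, with 4 counts in all in ret/ret cortex, so the value is a description. For the other 9 genes the interaction missed that p, which does not show that their differences were equal in the regions.

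Other mural genes had smaller median differences. Of a list of further pericyte and mural genes, 5 of 24 were lower at an unadjusted p under 0.05 in cortex, 4 of 24 in thalamus and 5 of 25 over both regions, against 1.14%, 0.88% and 1.51% of all genes. At that p 0 were higher, against 2.62%, 3.05% and 3.62% of all genes. Their median log2 fold change was -0.23, -0.49 and -0.45, and 8 of 24, 4 of 24 and 8 of 25 were higher in sign. Pdgfrb, the receptor for PDGF-B, was at 24.6, 18.8, 11.9 and 12.5 CPM in ret/wt cortex and 12.2, 11.1, 9.46 and 11.1 CPM in ret/ret cortex. Its log2 fold change there was -0.61 ± 0.26 (SE, unadjusted p 0.0414). Pdgfrb missed an unadjusted p of 0.05 in thalamus (-0.47 ± 0.37, SE) and over both regions (-0.50 ± 0.28, SE). P2ry14, a receptor for UDP sugars, had -1.57 ± 0.55 (SE) in cortex and -2.38 ± 0.73 (SE) in thalamus, and did not overlap between genotypes in either region. Pdgfrb and P2ry14 were picked after their values were seen.

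Markers of the other vascular cell types gave a different picture. Smooth muscle genes had a median of 0.41 in cortex and -0.13 in thalamus. At an unadjusted p under 0.05, 0 of 13 and 0 of 14 were lower. With so few genes tested this is near the 1.14% and 0.88% of all genes. Synpo2, which the thalamic neuron list also holds, was higher in ret/ret cortex without overlap, at 0.87 ± 0.26 (SE, unadjusted p 0.00727). Endothelial genes had a median of 0.59 in cortex and 0.41 in thalamus, and their summed level was 348 to 478 CPM in ret/wt cortex and 457 to 770 CPM in ret/ret cortex. In cortex Slco1a4, Kdr, Itm2a and Tie1 lay higher in ret/ret without overlap (1.58% of all genes), at log2 fold changes of 0.91 to 1.39, and Mfsd2a, a lipid transporter of the blood-brain barrier, lower at -0.71 ± 0.23 (SE). With counts scaled to the endothelial list, under which the median of all genes was -0.50 in cortex and -0.31 in thalamus, Rgs5 was at -2.19 ± 0.30 (SE) and -1.74 ± 0.35 (SE). In cortex Cspg4 was then at -1.10, and Anpep and Vtn changed sign to -0.45 and -0.34.

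**Figure D3:**
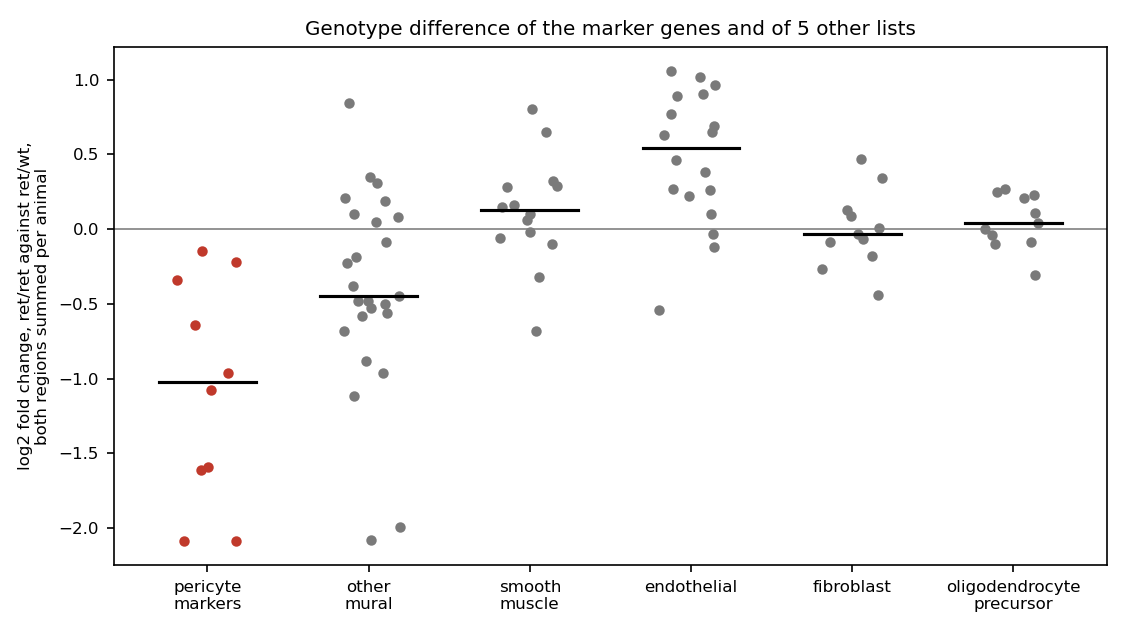
Log2 fold change of single genes (points) in ret/ret against ret/wt, over both regions summed per animal, by list, with the median as a line and random sideways spread. The pericyte markers have a median of -1.02 and the other mural genes of -0.45, while the smooth muscle, endothelial, fibroblast and oligodendrocyte precursor lists lie at 0.12, 0.55, -0.03 and 0.04.

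Levels between genes were compared per kilobase of exon. In ret/wt cortex Vtn (15.8 CPM per kilobase) and Rgs5 (13.1) were far above Atp13a5 (1.45), Cspg4 (1.18) and Higd1b (0.934), and Ndufa4l2 was lowest at 0.491. In ret/ret cortex Vtn was at 17.9 and Rgs5 at 3.99, and Cspg4 (0.77) and Anpep (0.834) stood above Atp13a5 (0.591), Art3 (0.194), Kcnj8 (0.102), Abcc9 (0.0895) and Higd1b (0.06). The order of the genes within the set was unlike that in the controls. For Rgs5 the group means ran downwards from ret/wt cortex over ret/wt thalamus and ret/ret thalamus to ret/ret cortex, and of these neighbours only the thalamus groups did not overlap. For Abcc9 ret/wt thalamus stood highest, then ret/wt cortex, and of the neighbours only these overlapped, with ret/ret thalamus and ret/ret cortex below. In Cspg4, Anpep and Vtn all neighbours in the order overlapped, and so they did in Kcnj8, Art3, Atp13a5 and Ndufa4l2.

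Between regions the share of markers that differed was near that of all genes. In ret/wt, Ndufa4l2 was higher in thalamus than in cortex at 1.76 ± 0.52 (SE, log2, 3.39-fold), without overlap (8.97% of genes), and the edgeR quasi-likelihood p was 0.0519 after Benjamini-Hochberg adjustment. It passed the filter there through the thalamus libraries. Vtn was higher in thalamus at 1.51 ± 0.58 (SE, unadjusted p 0.0251), and at 0.51 when ret/wt thalamus library 4 was left out. The regions of 1 animal are paired, and with the animal as a block Vtn was at 0.96 ± 0.53 (SE, unadjusted p 0.114). These 2 of 10 compare with 13% of all genes higher in thalamus at that p, and 0 of 10 were lower (14%). After adjustment 0 of 10 passed, where 5.44% of all genes were higher and 7.12% lower. In ret/ret, 8 genes were tested, and Abcc9 (1.41 ± 0.47, SE) and Cspg4 (0.87 ± 0.31, SE) were higher in thalamus at unadjusted p-values of 0.0142 and 0.0186, against 12.1% of all genes, and 0 were lower (14.6%). Abcc9 did so without overlap (8.18%). After adjustment 0 of 8 passed, where 4.1% of all genes were higher and 5.4% lower. With the animal as a block Cspg4 passed, at 0.91 ± 0.19 (SE) and an edgeR quasi-likelihood p of 0.0439 after Benjamini-Hochberg adjustment.

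Within groups the correlations between markers differed widely from pair to pair. After the mean of its group was taken from each log2 level, the correlation of pairs over the 16 libraries ran from -0.49 to 0.85 with a median of 0.12 over the 45 pairs. Anpep and Vtn formed the closest pair (r = 0.85). The lowest was Higd1b with Atp13a5. In the ret/ret cortex libraries Higd1b had 0 to 2 counts and Kcnj8 2 to 7. Correlations with such scarce genes carry counting error and do not show that the genes vary apart. Without removing the group means the 45 correlations ran from 0.10 to 0.86, with Rgs5 and Abcc9 highest. The libraries share depth, dissection and animal, and these values are descriptions.

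Anpep and Vtn varied with several marker lists, of which the fibroblast list gave the highest correlation for each. Over the 16 libraries, the within-group correlation with the mean level of the 11 of 12 fibroblast genes that passed the filter was 0.90 for Vtn, 0.87 for Anpep, 0.76 for Atp13a5 and 0.65 for Kcnj8, against 0.09 for Rgs5 and 0.12 for Abcc9. Vtn was also at 0.80 with the other mural genes, 0.77 with smooth muscle, 0.75 with endothelial and 0.72 with border macrophage genes. Anpep was at 0.65 with border macrophage and 0.64 with endothelial genes, and Atp13a5 at 0.75 with the other mural genes. Rgs5 and Abcc9 were at -0.17 and 0.23 with the other mural genes, and at -0.31 and -0.11 with smooth muscle genes. Abcc9 was at 0.65 with cortical neuron genes, Art3 at 0.72 with microglia genes and Cspg4 at 0.39 with oligodendrocyte precursor genes. The part of these cell types in the marker levels was not tested. The fibroblast genes summed to 97.2 to 162 CPM in ret/wt cortex, 57.0 to 166 CPM in ret/ret cortex, 60.5 to 193 CPM in ret/wt thalamus and 48.3 to 332 CPM in ret/ret thalamus, with 0 of 12 at 0 in any group. The genes most like Vtn were Fcgrt, Ptgds and Nupr1 (each r = 0.96), and those most like Anpep were Cxcl12 (0.94), Emilin1 (0.93) and Hcar1 (0.92), all named after their values were seen. With the fibroblast level as a covariate, an alternative added after seeing the data, the log2 fold change of Vtn was 0.18 in cortex and -0.22 in thalamus and that of Anpep 0.12 and -0.41. Rgs5 was then at -1.68 in cortex (edgeR quasi-likelihood p of 0.147 after Benjamini-Hochberg adjustment) and -1.41 in thalamus. Rgs5 varied within groups with the oligodendrocyte precursor genes (r = 0.78), and with their level as a covariate it was at -1.61 in cortex and -1.77 in thalamus.

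**Figure D4:**
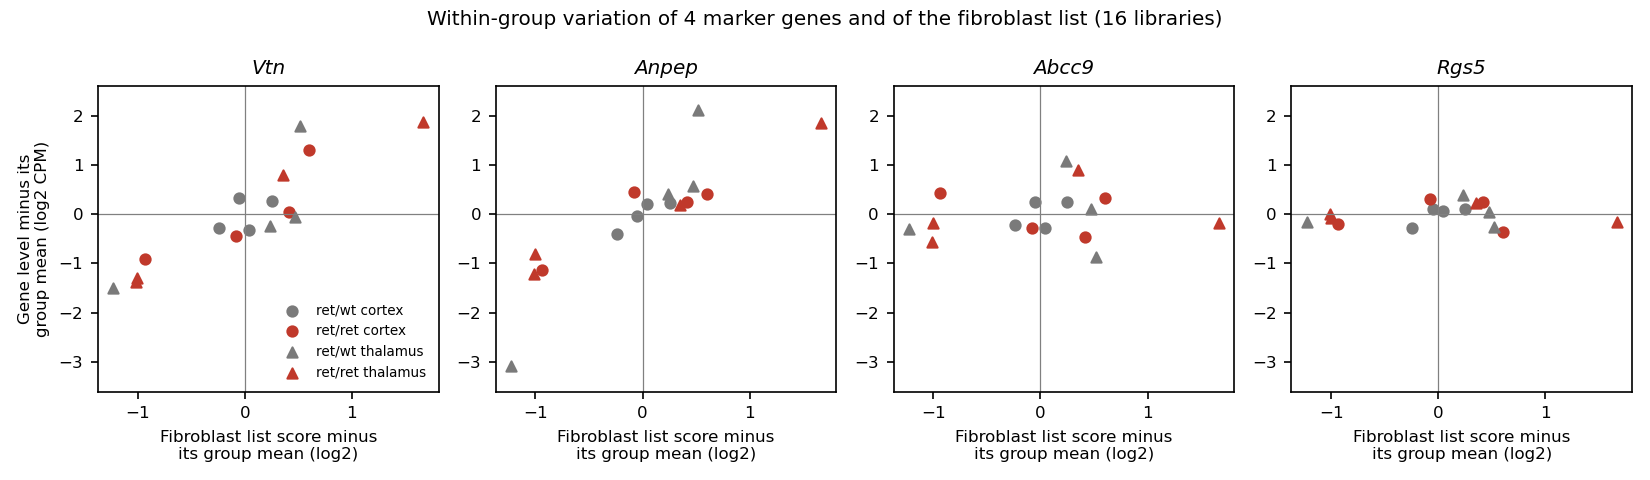
Level of Vtn, Anpep, Abcc9 and Rgs5 (y axis, log2 CPM minus the group mean) against the mean level of the fibroblast list (x axis, log2, minus the group mean) in the 16 libraries. Vtn (r = 0.90) and Anpep (r = 0.87) increase along the x axis, and Abcc9 (r = 0.12) and Rgs5 (r = 0.09) do not.

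The genes whose level was most like the mean of the 10 markers over the 16 libraries, before group means were removed, were Fzd2 (r = 0.85), Alpl (0.82), Gemin4 (0.80), Wars (0.79), Ypel4 (0.79), Pdgfrb (0.78), Mfsd2a (0.78), Ctu1 (0.78), Isyna1 (0.77) and Map3k4 (0.76). After group means were removed they were Dmap1, Evc, Mmp11, Myc, Hspg2, Trim47, Tapbp, P2rx6, Plcd1 and Adra2c, at 0.86 to 0.91. No gene was on both lists.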

How the data were processed

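RNA from 16 mouse brain libraries was analysed. The deposited expected counts per Ensembl gene were made by the authors with kallisto 0.44.0 on GRCm38.p6, per the submitters' processing notes, and all of their nonzero values (100.0%) were not whole. Counts were rounded to whole numbers, which treats estimated reads as counts. Symbols came from GENCODE M21 for 21581 identifiers (99.0%). Library totals were 13415438 to 29135220 counts.

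Groups and animals came from the labels, and the regions of 1 animal were paired by its identifier. The within-animal correlation of residuals ran from -0.017 to 0.239. Each genotype comparison used its own 8 libraries, or the counts of both regions summed per animal. The interaction used all 16 libraries. In it and in the region comparisons the main fit did not hold the animal as a block, which was an alternative. Genes passed filterByExpr (a minimum count of 10 and total of 15). TMM scaling and edgeR's quasi-likelihood test (edgeR 4.0.16, R 4.3.3) were used, with Benjamini-Hochberg adjustment over all genes at 0.05. CPM were scaled over the 16 libraries, and log2 CPM used a prior count of 1. SE came from the F statistic. DESeq2 1.42.0 and limma-voom (limma 3.58.1) were alternatives. The code was tested on simulated data.

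The members, gene lists and alternatives were chosen with earlier results of these data known. The rule named all 10 members. Of other lists it named at most 5 genes a comparison, with an unadjusted p under 0.05, no overlap and a mean log2 CPM of at least 0. Relatives of members and the 10 genes most like the mean of the members were also named. Cxcl10, Shmt2, Ldhb and Cmas were named for their place beside members, and other exceptions are stated where they occur. Of 28 other mural, 16 smooth muscle and 20 endothelial genes listed, 26, 15 and 18 were analysed here.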

Additional observations from a re-analysis of the deposited data

Results flagged for a closer look

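Rgs5 in ret/wt cortex was at 48.8 CPM in library 3, below the 62.0 to 63.9 CPM of the other 3 libraries of the group, and without it the cortex log2 fold change was -1.80 (SE 0.20). Atp13a5 in ret/ret cortex was at 5.58 CPM in library 2, against 1.60 to 2.08 CPM in the other 3, and without it that change was -1.88 (SE 0.31). These are the cortex libraries of the animals with Y-linked reads, with cerebellar genes at 1140 and 2800 CPM, and the part of either in these values was not tested. Dixon's test for a single distant value was run on 40 groups of 4 libraries and passed in 2 of them, where chance flags about 1 in 20. The genotype difference of Higd1b differed between regions by 2.78 ± 0.90 (SE, log2, unadjusted p 0.00714, not past adjustment), from 51 against 4 counts in cortex and 72 against 43 counts in thalamus. Higd1b passed the filter on low counts there on either ret/wt group alone but on neither ret/ret group alone, and the value is given as a description. Over 25 alternatives it ran from 2.27 to 3.46.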

How the results depend on the processing

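Every alternative listed for the 6 comparisons was run, apart from a dispersion estimate that turned out to be the default already used, and Higd1b in a fit limited to a mean CPM of 1, which it did not reach in the genotype comparisons. A newer dispersion estimate and the 2 covariates were chosen after seeing the data. In the 3 genotype comparisons, Rgs5, Abcc9, Kcnj8 and Atp13a5 kept their sign under all 20 alternatives, as did Art3. Higd1b kept it in thalamus and over both regions under the 19 fits it was part of.

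The 3 genes called in cortex became 38 in DESeq2, 0 with a replicate block and 1 without the animals with Y-linked reads, and 0 to 2 when 1 library was left out. The 0 in thalamus became 37 in DESeq2 and 1 with the newer dispersion. The 2 over both regions became 80 in DESeq2, 0 with the block, 0 without the Y-linked animals, and 1 to 2 when 1 animal was left out. The 0 of the interaction became 4 in DESeq2. For region, 1813 genes in ret/wt ranged over 1178 to 1797 with 1 library left out, and 1398 in ret/ret over 627 to 2007; the latter became 780 under endothelial scaling, 2591 in DESeq2 and 2564 without the Y-linked animals. Scaling moved the ret/wt region split of 785 higher and 1028 lower to 295 and 1576 (endothelial) and to 977 and 844 (library size alone).

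Equal replicate numbers are different animals across genotypes, so the block pairs no libraries of 1 animal there. With it, Rgs5 had edgeR quasi-likelihood p-values of 0.291 and 0.194 after Benjamini-Hochberg adjustment in cortex and over both regions. Between the regions of 1 animal the block gave 1487 and 1177 calls, and of the marker results only the ret/ret value of Cspg4 (0.0439) changed its call. Over all 18 alternatives of the ret/wt region comparison, Ndufa4l2 passed adjustment in 3 and Vtn in 2. Over the 18 in ret/ret, Cspg4 passed in 2 and Abcc9 in 1. In cortex Higd1b rested on 51 against 4 counts.

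Signs changed for 4 of the 10 markers. Anpep in cortex was at -0.45 with endothelial scaling, -0.10 in limma-voom, -0.03 with the block, -0.18 without the Y-linked animals and -0.08 to 0.33 with 1 library left out. Vtn in cortex was at -0.34, -0.01, -0.03 and -0.53 in these, and -0.44 to 0.45. Cspg4 in thalamus was at 0.00 without a filter, 0.08 in limma-voom, 0.07 with the block, 0.18 and 0.37 with the fibroblast and oligodendrocyte precursor covariates, and -0.17 to 0.37 with 1 library left out. The precursor covariate gave 0.52 for Vtn and 0.46 for Ndufa4l2 in thalamus. With 1 library or animal left out, Vtn ran from -1.42 to 0.50 in thalamus and -0.67 to 0.36 over both regions, and Cspg4 from -0.40 to 0.08 over both. The cause of these shifts was not tested.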
